A study of Homo sapiens with 24 samples.

Results

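The mitochondrial ribosome makes the few proteins that mitochondrial DNA encodes, all of them subunits of the oxidative phosphorylation complexes. Its RNAs come from mitochondrial DNA, whereas its proteins are encoded in the nucleus, made by cytosolic ribosomes and imported. The proteins fall into a small subunit that decodes the mRNA and a large subunit that forms the peptide bond. Some belong to families shared with bacterial ribosomes and others occur only in mitochondria. The genes described here were those with a symbol of MRPL or MRPS, a number and at most one letter from A to D, and with a probe whose detection p-value was under 0.05 on each of the 3 arrays of some group. RefSeq lists 77 genes of that form, 76 were on the array and all 76 passed, out of 12109 genes tested. MRPL27 was not among the genes named on the array. Of the 76 members, 26 belong to the small and 50 to the large subunit, MRPS30 and MRPS18A among the large ones, and 44 belong to bacterial families while 32 are specific to mitochondria. Each member was detected on all 24 arrays, so the filter removed none.

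Their RNA was measured in HCC1954 and JIMT1 cells with Illumina bead arrays. Both are human breast cancer lines with ERBB2 gain and a mutant PIK3CA, the gene of the p110α catalytic subunit of PI3K, and both are insensitive to BYL719. Cells were treated for 4 hr with BYL719, a PI3Kα inhibitor, at 1 μM together with GSK2334470, a PDK1 inhibitor, at 1 μM (the combination), with 1 μM BYL719 alone, with 1 μM GSK2334470 alone, or with 0.1% DMSO as the vehicle. Each of the 8 groups of line and treatment had 3 arrays labelled as biological replicates, so that each statement about a cell type rests on 1 line cultured without other cells. PI3K and PDK1 act upstream of AKT, SGK1 and mTORC1, a kinase complex known to promote ribosome production and mitochondrial gene expression. The comparisons asked how the members responded to each agent and to both together, and how the lines differed without drug.

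Array medians ran from 48.5 to 81.9 intensity units, and 41% to 45.2% of its probes were detected. The epithelial and ERBB2 markers EPCAM, CDH1, KRT8, KRT18, KRT19 and ERBB2 were detected on all 24 arrays. Among markers of other cells, PTPRC, CD3E and PDGFRB were detected on 0 arrays, CD68 and PECAM1 on all 24, and VWF on 12 HCC1954 arrays and 0 JIMT1 arrays. CDH5 was detected on 12 HCC1954 and 9 JIMT1 arrays, and the fibroblast markers COL1A1 on 11 and 12, COL1A2 on 3 and 6 and DCN on 1 and 2. Their part in the results was not tested. Values below are background-corrected, quantile-normalized log2 intensities of the brightest probe of a gene, in log2 units, and a difference of 1 is a doubling. Within a group the SD of a member over its 3 arrays had a median of 0.09 and reached at most 0.34. A gene was called when its limma p-value, adjusted by Benjamini-Hochberg over the 12109 genes, was under 0.05.

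The promoters of MRPS17, MRPL36 and MRPL20, the members with the largest mean fall under the combination, are printed with their motif matches. These members were picked by that fall, so their like direction follows from the choice. RefSeq promoters of GRCh38.p14, from 250 bases before to 50 bases after the annotated start, were found for 68 of the 76 members. They were searched on both strands for 6 motifs, and matches on either strand are in capitals. The E-box was taken as CACGTG. The core bound by NRF1 was taken as GCGCATG, and that bound by ETS factors such as GABP as CCGGAAG. The core bound by YY1 was taken as AAGATGG, the one shared by SP and KLF factors as GGGCGG, and that bound by NF-Y as CCAAT. MRPS17 is at chr7:55951627-55951926 on the plus strand, MRPL36 at chr5:1799788-1800087 on the minus strand and MRPL20 at chr1:1407244-1407543 on the minus strand.
MRPS17: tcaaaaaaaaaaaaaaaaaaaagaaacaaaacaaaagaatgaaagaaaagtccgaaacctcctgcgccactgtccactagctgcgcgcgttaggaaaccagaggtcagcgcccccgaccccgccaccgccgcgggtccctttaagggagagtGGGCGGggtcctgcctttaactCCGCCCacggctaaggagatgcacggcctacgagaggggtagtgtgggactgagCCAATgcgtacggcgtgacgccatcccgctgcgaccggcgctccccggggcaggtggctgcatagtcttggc
MRPL36: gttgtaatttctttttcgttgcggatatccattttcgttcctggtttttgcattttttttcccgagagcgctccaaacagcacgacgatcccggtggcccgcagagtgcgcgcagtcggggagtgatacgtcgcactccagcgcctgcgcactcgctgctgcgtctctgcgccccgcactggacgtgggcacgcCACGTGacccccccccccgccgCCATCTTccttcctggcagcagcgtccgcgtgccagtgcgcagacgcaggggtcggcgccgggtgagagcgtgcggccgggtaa
MRPL20: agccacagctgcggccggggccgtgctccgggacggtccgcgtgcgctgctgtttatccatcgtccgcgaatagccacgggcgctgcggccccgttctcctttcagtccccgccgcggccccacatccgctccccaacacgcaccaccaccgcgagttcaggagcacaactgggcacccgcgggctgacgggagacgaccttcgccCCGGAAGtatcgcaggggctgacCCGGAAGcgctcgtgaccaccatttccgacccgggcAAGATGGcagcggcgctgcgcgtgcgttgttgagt

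The MRPS17 window held the SP and NF-Y letters, the MRPL36 window the E-box and YY1 letters, and the MRPL20 window the ETS and YY1 letters. The ETS letters occurred in 41.2% of the 68 member promoters, against 19.1% of 9716 promoters of genes tested here and 10.7% of 27305 promoters in all. The YY1 letters occurred in 33.8% of member promoters, against 7.6% of those of genes tested and 6.1% of all. The E-box was in 8.8% of member promoters, against 10.1% of those of genes tested and 7.4% of all. The NRF1 letters were in 10.3%, against 7.5% and 4.7%, the SP letters in 61.8%, against 68.8% and 44.6%, and the NF-Y letters in 27.9%, against 37.3% and 35.7%. Of the 25 members with a promoter that were called in a treatment comparison, 11 held the ETS and 7 the YY1 letters, and of the 43 others 17 and 16 did. A match is a description of letters in a window and was not tested for binding.

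Under the combination, every member called in either line was lower than with DMSO. In HCC1954 cells, 11 of 76 members were called, all lower, which is 14.5% of the members beside 15.3% of all genes called in either direction, 8.3% lower and 6.96% higher. In JIMT1 cells, 20 of 76 members were called, all lower, which is 26.3% beside 21.3% of all genes in either direction, 8.84% lower and 12.5% higher. The shares called in either direction were thus near the background, and the shares called lower were above it. This excess depended on the scaling: with each array scaled to its median over all probes, 3 of 76 members (3.95%) were called lower in HCC1954, beside 5.08% of all genes, and 2 (2.63%) in JIMT1, beside 2.45%. The median log2 fold change of the members was -0.16 in HCC1954 and -0.18 in JIMT1, and that of all genes tested was 0 and 0.02. Values were below 0 for 63 of 76 members in HCC1954 (82.9%, beside 50.3% of all genes) and for 62 in JIMT1 (81.6%, beside 47.5%), and above 0 for the other 13 and 14. Without overlap between the 3 combination and the 3 DMSO arrays, 26 members lay lower in HCC1954, beside 15% of all genes, and 40 in JIMT1, beside 17.6%. On the higher side the counts were 0 in HCC1954, beside 13.9% of all genes, and 1 in JIMT1, beside 21.7%. That member was MRPL45, at 11.43, 11.27 and 11.34 with the combination against 11.26, 11.11 and 11.12 with DMSO (0.18, adjusted p = 0.127). The other probe of MRPL45 went the opposite way in JIMT1, at -0.53 (adjusted p = 0.0235 over probes). In RNA from whole cultures, fewer cells with a transcript and less of it per cell cannot be told apart.

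**Figure D1:**
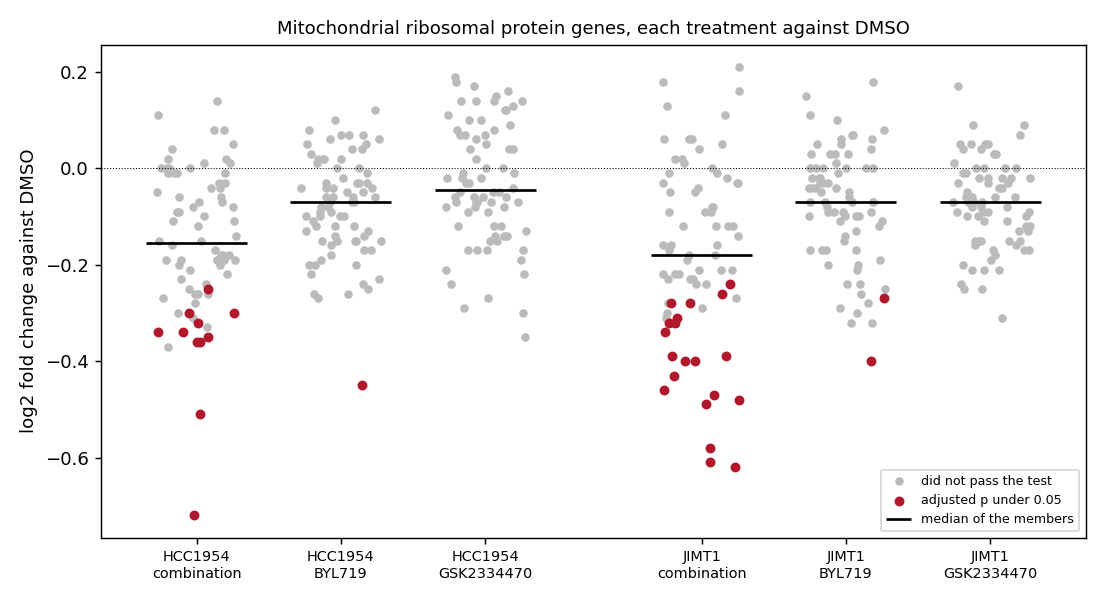
Log2 fold change of each of the 76 members against DMSO (y axis) for each treatment in HCC1954 and JIMT1 cells (x axis). Red points had an adjusted p under 0.05, grey points did not, and bars mark the members' medians, which lie at -0.16 and -0.18 under the combination. All 11 and 20 red points of the combination lie below 0.

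The shift was seen on each array. As the median over members of the deviation from the DMSO mean of the line, the 3 HCC1954 combination arrays were at -0.12, -0.18 and -0.14, against 0.04, 0.00 and -0.04 for the HCC1954 DMSO arrays. The 3 JIMT1 combination arrays were at -0.16, -0.20 and -0.15, against 0.01, -0.02 and 0.00 for the JIMT1 DMSO arrays. The BYL719 arrays lay at -0.04, -0.08 and -0.12 in HCC1954 and at -0.03, -0.08 and -0.04 in JIMT1. The GSK2334470 arrays lay at 0.01, -0.10 and 0.02 in HCC1954 and at -0.07, -0.04 and -0.11 in JIMT1. Combination and DMSO arrays did not overlap in either line. The arrays of the single agents lay between them or overlapped DMSO, except that 1 BYL719 array of HCC1954 reached the range of the combination arrays. The DMSO arrays set the baseline themselves, which draws their values toward it and makes a separation from treated arrays easier.

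MRPS17, a small-subunit protein of a bacterial family that binds ribosomal RNA, fell most. Its values in HCC1954 were 11.13, 11.21 and 11.33 with the combination, 11.57, 11.59 and 11.33 with BYL719, 11.61, 11.58 and 11.76 with GSK2334470, and 12.05, 11.90 and 11.89 with DMSO. In JIMT1 they were 11.78, 11.63 and 12.01 with the combination, 12.01, 12.02 and 12.06 with BYL719, 12.17, 12.25 and 12.10 with GSK2334470, and 12.36, 12.37 and 12.55 with DMSO. In both lines each treated array was below each DMSO array, and the combination arrays were the lowest, sharing a value of 11.33 or 12.01 with a BYL719 array. The combination log2 fold change was -0.72 in HCC1954 (SE 0.10, adjusted p = 2.91e-05), a 0.61-fold level. In JIMT1 it was -0.62 (SE 0.10, adjusted p = 0.000119), a 0.65-fold level. BYL719 alone gave log2 fold changes of -0.45 in HCC1954 (adjusted p = 0.0121) and, for JIMT1, -0.40 (adjusted p = 0.0115). With GSK2334470 alone HCC1954 cells had -0.30 (95% confidence interval -0.50 to -0.09, adjusted p = 0.18) and JIMT1 cells -0.25 (-0.46 to -0.05, adjusted p = 0.285).

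MRPL36 encodes one of the smallest large-subunit proteins, of a bacterial family. In HCC1954 it was at 13.66, 13.78 and 13.75 with the combination, 14.07, 14.06 and 14.07 with BYL719, 14.14, 14.01 and 14.07 with GSK2334470, and 14.14, 14.28 and 14.31 with DMSO. In JIMT1 it was at 11.45, 11.44 and 11.60 with the combination, 11.76, 11.72 and 11.71 with BYL719, 11.99, 11.93 and 11.86 with GSK2334470, and 12.02, 11.88 and 11.87 with DMSO. The combination arrays lay below the arrays of the other 3 groups in each line. Its combination log2 fold changes were -0.51 (SE 0.07, adjusted p = 4.26e-05) for HCC1954 and -0.43 (SE 0.07, adjusted p = 0.000209) for JIMT1. It was also lower with the combination than with BYL719 in HCC1954 (-0.34, adjusted p = 0.0118), whereas the JIMT1 difference was -0.23 (adjusted p = 0.135). The differences from GSK2334470 were -0.34 (adjusted p = 0.00384) for HCC1954 and -0.43 (adjusted p = 0.00051) for JIMT1.

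MRPL20 and MRPL32, large-subunit proteins of bacterial families, were called in JIMT1 and not in HCC1954. MRPL20, which in bacteria is needed early in assembly of the large subunit, was at 9.37, 9.46 and 9.51 in JIMT1 with the combination, 9.92, 9.97 and 9.98 with BYL719, 9.92, 10.09 and 9.85 with GSK2334470, and 10.12, 9.84 and 10.10 with DMSO. The combination arrays stood apart from all others of that line, with a log2 fold change against DMSO of -0.58 (SE 0.12, adjusted p = 0.00124). In HCC1954 it was at 10, 9.82 and 9.95 with the combination, 10.08, 9.99 and 10.03 with BYL719, 10.15, 9.80 and 10.18 with GSK2334470, and 10.09, 10.51 and 10.08 with DMSO, a combination difference of -0.31 (adjusted p = 0.0866). The other probe of MRPL20 gave -0.68 in JIMT1 (adjusted p = 0.000592 over probes) and -0.13 in HCC1954 (adjusted p = 0.577).

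MRPL32 is a protein that the m-AAA protease must cut before it enters the ribosome. In JIMT1 it was at 11.66, 11.39 and 11.65 with the combination, 11.82, 12.04 and 11.80 with BYL719, 12.01, 11.92 and 11.68 with GSK2334470, and 12.16, 12.10 and 12.29 with DMSO. The combination arrays were below the DMSO arrays without overlap, with a log2 fold change of -0.61 (SE 0.11, adjusted p = 0.00031). In HCC1954 it was at 11.36, 11.14 and 11.16 with the combination, 11.39, 11.29 and 11.26 with BYL719, 11.73, 11.62 and 11.50 with GSK2334470, and 11.59, 11.52 and 11.33 with DMSO. There 1 combination array exceeded 1 DMSO array, and the difference was -0.26 (adjusted p = 0.114).

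MRPS23, a mitochondria-specific small-subunit protein, was at 10.23, 9.92 and 10.38 in JIMT1 with the combination, 10.45, 10.46 and 10.44 with BYL719, 10.55, 10.60 and 10.27 with GSK2334470, and 10.65, 10.64 and 10.68 with DMSO. The combination arrays spread more widely than the DMSO arrays but did not reach them, and the log2 fold change was -0.48 (SE 0.13, adjusted p = 0.0111). In HCC1954 it was at 9.40, 9.51 and 9.27 with the combination, 9.52, 9.48 and 9.45 with BYL719, 9.88, 9.39 and 9.70 with GSK2334470, and 9.75, 9.67 and 9.34 with DMSO, with overlap and a difference of -0.20 (adjusted p = 0.354). MRPL12 forms the flexible stalk that recruits translation factors. In JIMT1 it was at 10.63, 10.65 and 10.64 with the combination, 10.83, 10.45 and 10.86 with BYL719, 10.76, 10.86 and 10.84 with GSK2334470, and 11.07, 11.06 and 10.97 with DMSO. All 9 treated arrays were below the DMSO arrays, and the combination log2 fold change was -0.39 (SE 0.12, adjusted p = 0.0248). In HCC1954 it was at 10.24, 9.88 and 10.14 with the combination, 10.06 on each BYL719 array, 10.56, 10.03 and 10.52 with GSK2334470, and 10.34, 10.27 and 10.37 with DMSO. The combination and BYL719 arrays lay below DMSO, but at -0.25 (adjusted p = 0.2) and -0.27 (adjusted p = 0.264) neither difference was called.

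**Figure D2:**
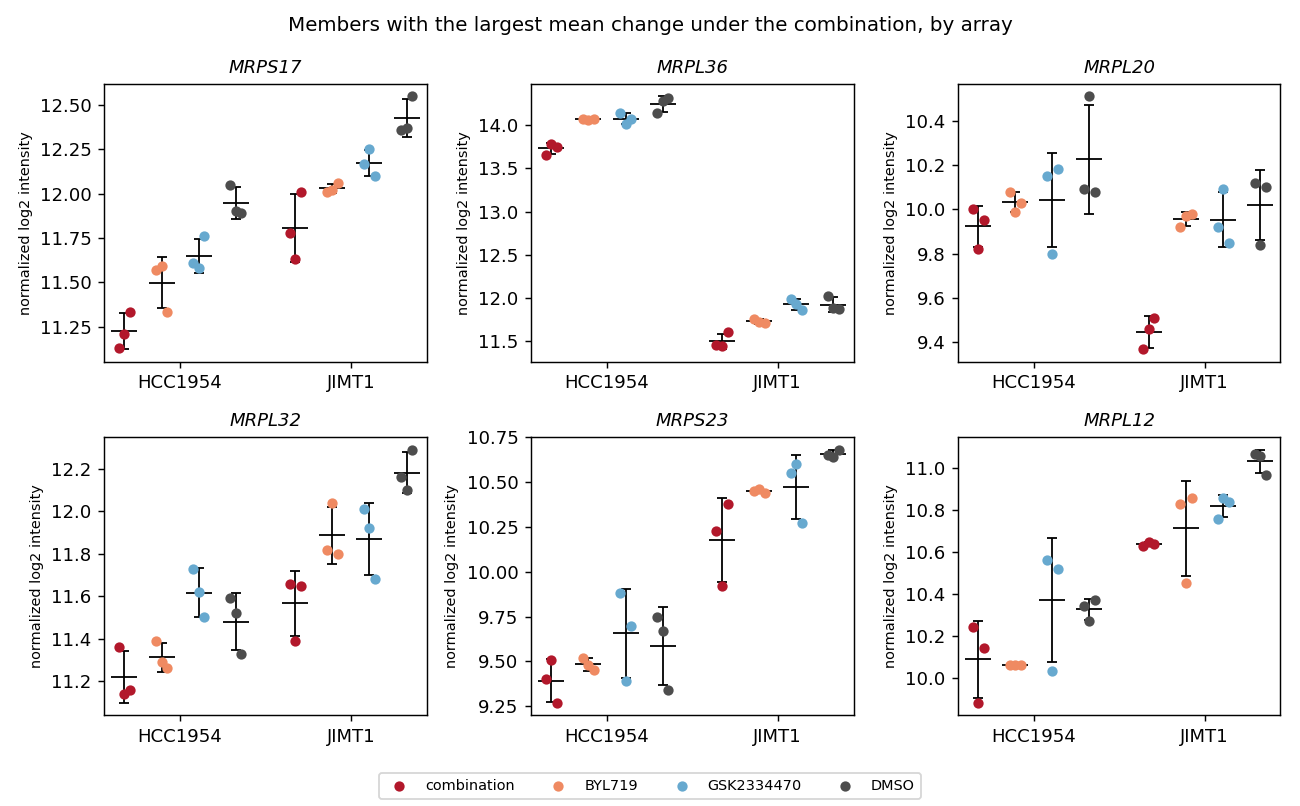
Normalized log2 intensity (y axis) of the 6 members with the largest mean combination change on each array, by line (x axis) and treatment (colour). Points are single arrays and black bars the mean and SD of 3 arrays. MRPS17 and MRPL36 were lowest with the combination in both lines, and MRPL20 was at 9.37 to 9.51 with the combination in JIMT1, below its every other group.

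Of the 26 members called in either line under the combination, 5 were called in both: MRPS17, MRPL36, MRPL14, MRPL17 and MRPL50. They are 5 of the 11 called in HCC1954 and 5 of the 20 called in JIMT1. MRPL14, which lies at the face of the large subunit that meets the small one, was changed by -0.34 in HCC1954 and -0.24 in JIMT1 (adjusted p = 0.00791 and 0.0455). MRPL17, of a bacterial family near the exit tunnel, had -0.34 and -0.28 (0.0135 and 0.0321). MRPL50, specific to mitochondria, had -0.25 and -0.26 (0.0295 and 0.0207). Log2 fold changes were below 0 in both lines for 55 of 76 members. The shares of all genes called in both lines, or below 0 in both, are not given. Neither count can therefore be set against a background.

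The other members called in HCC1954 were all of the large subunit except MRPS18C. MRPL16, next to the peptidyl transferase centre, and MRPL55 were at -0.36 each (adjusted p = 0.00578 and 0.0103). MRPS18C, one of several paralogs of a bacterial small-subunit protein, had -0.35 (adjusted p = 0.00384). MRPL57 had -0.32 (adjusted p = 0.0465), and MRPL22, which lines the exit tunnel, -0.30 (adjusted p = 0.0451). The other probe of MRPL22 gave -0.04 (adjusted p = 0.885 over probes), and its call was lost under 9 of 16 alternatives. That of MRPL57 gave -0.44 (0.234) and that of MRPL55 -0.31 (0.169). The call of MRPL57 was lost under 10 of 16 alternatives. MRPL34 passed narrowly, at -0.30 (adjusted p = 0.0496), and lost its call under 9 of 16 alternatives.

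In JIMT1, the small-subunit MRPS34 had a log2 fold change of -0.49 (adjusted p = 0.0124), and MRPL30 and MRPL33, both of bacterial families, had -0.47 (adjusted p = 0.00316) and -0.46 (adjusted p = 0.00145). MRPL23, at the rim of the exit tunnel, and MRPL41, specific to mitochondria, had -0.40 each (adjusted p = 0.00142 and 0.025). The second probe of MRPL33 gave -0.39 (adjusted p = 0.00734 over probes). That of MRPL30 gave -0.29 (0.132) and that of MRPL3 -0.48 (0.131), and neither passed. The other calls in JIMT1 were MRPL52 (-0.39), MRPL1 (-0.34), MRPS30 and MRPL48 (-0.32 each), MRPL3 (-0.31) and MRPS26 (-0.28). In all, 50 members were called in none of the 6 comparisons of a treatment with DMSO, which does not show that they were unaffected.

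**Figure D3:**
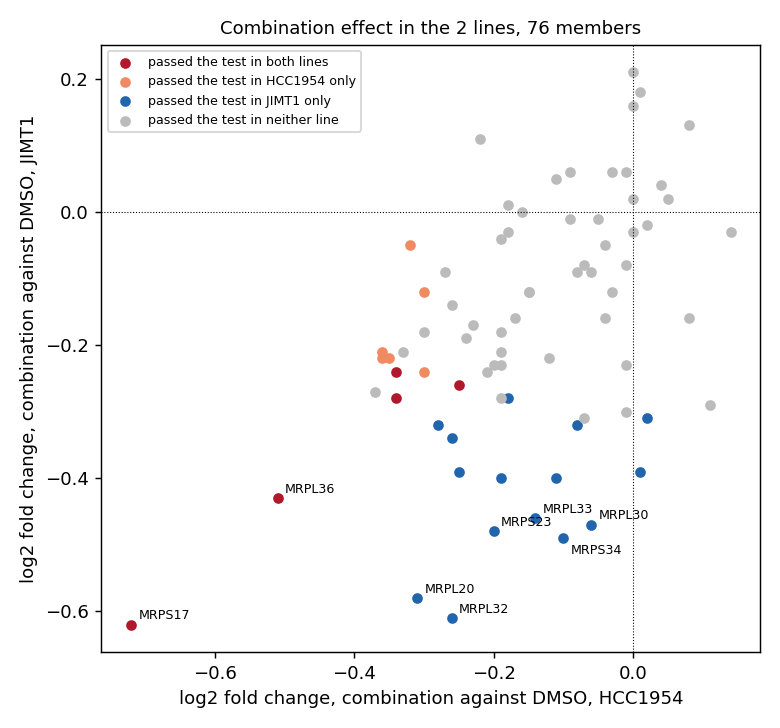
Log2 fold change of each of the 76 members under the combination against DMSO in HCC1954 (x axis) and JIMT1 (y axis). Colours mark the members that passed the test in both lines (5), in HCC1954 only (6), in JIMT1 only (15) or in neither. Of the 76 points, 55 lie in the lower left quadrant, with MRPS17 farthest from 0. The share of all genes in that quadrant is not given.

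Whether the combination acted differently on the lines was tested directly. No member was called (0 of 76, limma), while 542 of 12109 genes (4.48%) were. At an unadjusted p under 0.05 there were 7 members, beside 18.4% of all genes. Of these 7, MRPL30 (0.41), MRPL52 (0.40), MRPL32 (0.35), MRPL3 (0.33), MRPL33 (0.32) and MRPL23 (0.29) had positive differences, HCC1954 minus JIMT1, that is, a more negative combination value in JIMT1. For MRPL20 the difference was 0.27 (adjusted p = 0.413). MRPS16, which binds ribosomal RNA early in assembly in bacteria, had a negative one (-0.33). Their adjusted p-values ran from 0.137 to 0.215. A call in one line and not in the other is therefore not shown to be a difference between lines for any member. For the BYL719 effect 0 members were called beside 1.32% of all genes, and only MRPL24 of the 76 had an unadjusted p under 0.05, beside 11.9% of all genes (difference -0.27, adjusted p = 0.3).

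By subunit, 2 of 26 small-subunit and 9 of 50 large-subunit members were called lower under the combination in HCC1954, with median log2 fold changes of -0.09 and -0.18, beside 8.3% of all genes called lower. In JIMT1 the counts were 4 of 26 and 16 of 50, with medians of -0.09 and -0.21, beside 8.84% of all genes. By family, 8 of 44 bacterial-family and 3 of 32 mitochondria-specific members were called in HCC1954, and 12 of 44 and 8 of 32 in JIMT1. These counts were not tested against each other.

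The single agents called few members. BYL719 lowered 1 of 76 in HCC1954, MRPS17, where 3.86% of all genes were called and 1.89% were lower. It lowered 2 in JIMT1, where 11.4% of all genes were called and 5.15% were lower. Those were MRPS17 and MRPL3, a protein of the peptidyl transferase region, at -0.27 (SE 0.09, adjusted p = 0.0455). The call of MRPL3 was lost under 9 of 16 alternatives, and its second probe gave -0.47 (adjusted p = 0.205 over probes). The members' median log2 fold change was -0.07 in both lines. GSK2334470 called 0 members in either line (limma), with 9 at an unadjusted p under 0.05 in HCC1954, beside 13.8% of all genes, and 5 in JIMT1, beside 12.3%. It called 0.00826% of all genes in HCC1954 and 1.28% in JIMT1, and the members' medians were -0.04 and -0.07. The comparisons with DMSO within a line share the same 3 DMSO arrays.

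Set against BYL719, the combination lowered 1 member in HCC1954, MRPL36, beside 2.73% of all genes called and 1.32% lower. In JIMT1 it lowered 2, MRPL20 (-0.51, adjusted p = 0.0339) and MRPL33 (-0.42, adjusted p = 0.0322), beside 1.18% of all genes called and 0.421% lower. Leaving out any 1 of the 6 arrays concerned gave 0 members. The HCC1954 call was lost without combination replicate 1. Set against GSK2334470, it lowered 6 members in HCC1954, beside 8.95% of all genes called and 5.29% lower, and 9 in JIMT1, beside 11.2% called and 4.48% lower. The largest in HCC1954 were MRPS17 (-0.43, adjusted p = 0.00796), MRPL32 (-0.40, 0.0219), MRPL36, MRPL55 (-0.30, 0.047) and MRPS18C (-0.26, 0.0399). In JIMT1 they were MRPL20 (-0.51, 0.00743), MRPL36, MRPL33 (-0.40, 0.00994), MRPL52 (-0.39, 0.0223) and MRPS17 (-0.37, 0.0205). Of these calls against GSK2334470 in HCC1954, that of MRPL55 was lost under 9 of 16 alternatives, MRPS18C under 8 and MRPL32 under 5. In JIMT1 the calls of MRPL52 and MRPS17 were lost under 5 of 16 each. Both sets of comparisons share the combination arrays.

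Departure from additivity, the combination minus both single-agent values plus DMSO, was called for 0 of 76 members in either line (limma), beside 0.033% of all genes in each. At an unadjusted p under 0.05 there were 2 members in HCC1954, beside 7.92% of all genes, and 6 in JIMT1, beside 8.23%. The most negative was MRPL20 in JIMT1, at -0.44 (SE 0.17, adjusted p = 0.469). For MRPS17 it was 0.02 in HCC1954 and 0.03 in JIMT1 (SE 0.14 each).

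Counts of called members depended on single arrays. In HCC1954 the combination called 6 members without combination replicate 3, against 8 to 11 without any 1 of the other 5 arrays. In JIMT1 the count was 10 when combination replicate 3 was left out. It was 12 when DMSO replicate 3 and 13 when DMSO replicate 2 was left out, against 14 or 15 for the other arrays. Every called member was lower in each of these fits. The shares of all genes called in these fits are not given, so the counts cannot be set against a background. MRPS17 stayed called under the combination in each of 16 alternative fits in both lines, with log2 fold changes between -0.85 and -0.67 (HCC1954) and between -0.74 and -0.53 (JIMT1). MRPL36 did so in HCC1954 (-0.56 to -0.37) and in 15 of 16 fits in JIMT1 (-0.54 to -0.38).

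The brightest probe did not always stand for the others. Of 23 members with over 1 probe past the filter, the probes shared a sign under the combination in 13 in HCC1954 and 17 in JIMT1. MRPS12, a decoding-site protein of the small subunit, differed most in JIMT1. There the brightest probe gave -0.09 (adjusted p = 0.532 over probes), and the other 3 gave -0.42 (0.0168), -0.96 (0.00176) and -0.45 (0.22). In HCC1954 those 4 probes gave -0.27, -0.30, -0.48 and -0.10. MRPS12 is thus not called by the rule used, while a pair of its less bright probes passed. Less bright probes also passed in JIMT1 for MRPL45 (-0.53, adjusted p = 0.0235 over probes, with 0.18 for the brightest), MRPL47 (-0.68, 0.028, with -0.31) and MRPS21 (-0.38, 0.0297, with -0.16). In HCC1954 MRPL4 differed most, with -0.08 for its brightest probe and -0.14 and 0.47 for the others. The last of these, detected on 12 arrays, gave -0.45 in JIMT1, and its line difference of 0.92 passed (adjusted p = 0.0272 over probes).

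Between the lines without drug, members differed widely, and more were called lower than higher in HCC1954. Under DMSO, 51 of 76 (67.1%) were called, 13 higher and 38 lower in HCC1954 than in JIMT1, beside 69.7% of all genes, of which 34.4% were higher and 35.4% lower. The share called was near the background, whereas its split was 17.1% higher and 50% lower. The median difference, HCC1954 minus JIMT1, was -0.22 for members and 0 for all genes. Small-subunit members were mostly lower, with 21 of 26 called lower and 2 called higher (median -0.49). Of the 50 large-subunit members 17 were lower and 11 higher (median -0.07).

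MRPL36 differed most, at 14.14, 14.28 and 14.31 in HCC1954 against 12.02, 11.88 and 11.87 in JIMT1, a difference of 2.32 (SE 0.07, adjusted p = 7.04e-17) or 4.98-fold. MRPL24, which helps start assembly of the bacterial large subunit, was at 12.62, 12.65 and 12.46 in HCC1954 against 11.40, 11.29 and 11.34 in JIMT1 (difference 1.23, SE 0.08, adjusted p = 7.77e-12). MRPL23 was at 10.77, 10.67 and 10.78 in HCC1954 against 9.61, 9.58 and 9.58 in JIMT1 (1.15, SE 0.08, adjusted p = 7.26e-11). For these 3 the arrays of the lines were far apart relative to their spread. Next were MRPL9 (0.99), MRPL17 (0.90), MRPL53 (0.80), MRPL13 (0.77), MRPS21 and MRPS28 (0.62 each) and MRPL19 (0.61). The other probe of MRPS21 went the opposite way, at -0.30 (adjusted p = 0.0309 over probes), so its direction between the lines is not settled.

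On the other side, MRPS25, a mitochondria-specific small-subunit protein, was at 7.69, 7.26 and 7.68 in HCC1954 against 9.41, 9.12 and 9.12 in JIMT1, a difference of -1.67 (SE 0.15, adjusted p = 3.49e-09) or 0.31-fold. MRPL47, near the exit tunnel, was at 9.49, 9.90 and 9.34 in HCC1954 against 10.95, 10.97 and 11.12 in JIMT1 (-1.43, SE 0.13, adjusted p = 2.73e-09). MRPS10, in the head of the small subunit, was at 11.16, 11.61 and 10.95 in HCC1954 against 12.42, 12.38 and 12.44 in JIMT1 (-1.17, SE 0.12, adjusted p = 4.23e-08). The lines did not overlap for any of them, and the HCC1954 arrays spread more widely than those of JIMT1. MRPS23 (-1.07), MRPS5 and MRPL4 (-0.98 each), MRPL58 (-0.86), MRPL38 (-0.84), MRPS27 (-0.82) and MRPS11 (-0.81) followed. MRPL58 is a peptidyl-tRNA hydrolase that became a structural protein of the large subunit.

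Of 23 members with over 1 probe past the filter, the probes shared a sign between the lines in 15. Among those that disagreed was MRPL43. Its brightest probe gave 0.21 (adjusted p = 0.0635 over probes), and the other probes gave -0.08 (0.704) and -1.40 (1.35e-07). The 4 probes of MRPS12 gave -0.56, -0.89, -0.93 and -0.47, and all but the last (adjusted p = 0.099 over probes) passed the test.

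**Figure D4:**
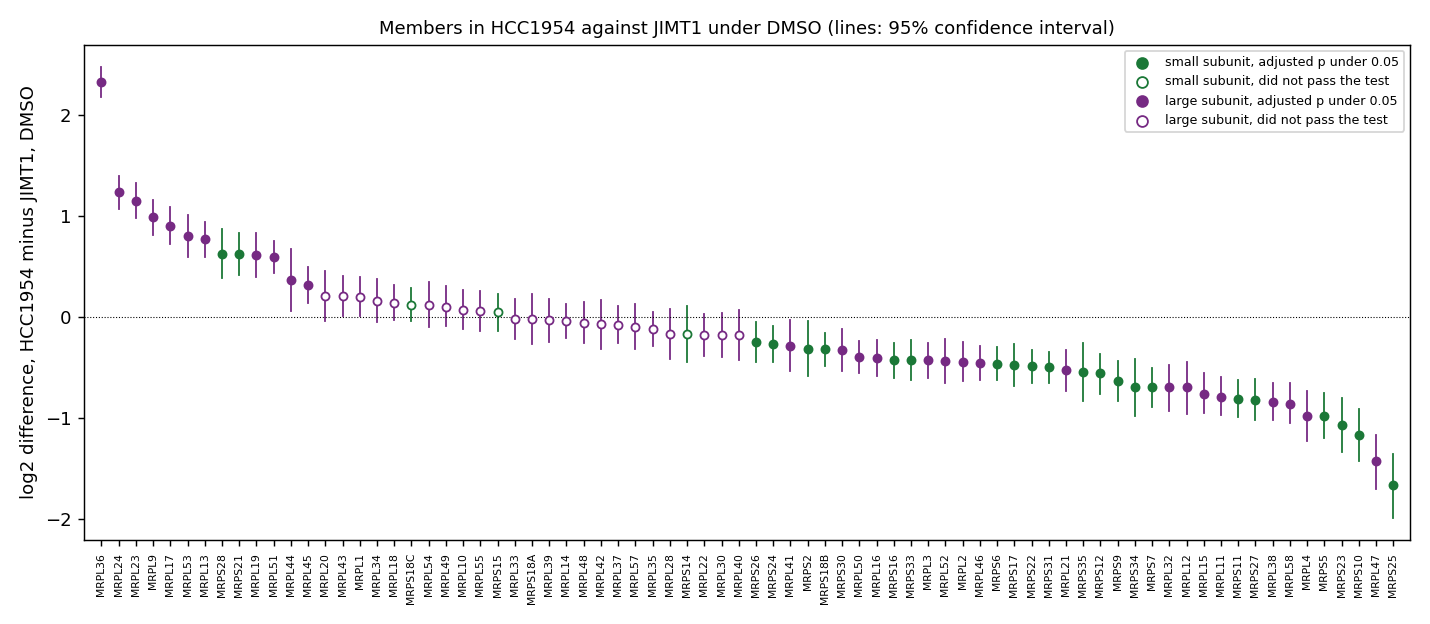
Log2 difference, HCC1954 minus JIMT1 under DMSO (y axis), of each of the 76 members (x axis, sorted), with its 95% confidence interval as a line, n = 3 arrays per line. Colour marks the subunit and filled points had an adjusted p under 0.05. MRPL36 (2.32) and MRPS25 (-1.67) are at the ends, and filled small-subunit points lie mostly below 0.

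The rest of the mitochondrial translation system and the genes around it were described from lists. The list counts below stand beside 8.3% of all genes called lower and 6.96% higher under the combination in HCC1954. In JIMT1 those shares were 8.84% lower and 12.5% higher. The list of other mitoribosome subunits held DAP3, CHCHD1, GADD45GIP1 and KGD4, the last of which is named as a subunit of a dehydrogenase complex. Of these 4 genes, 0 were called under the combination in either line (limma). Their log2 fold changes were between -0.21 and 0.05 (HCC1954) and between -0.08 and 0.23 (JIMT1). Of 15 mitochondrial translation factors, the recycling factor MRRF was higher (0.20, adjusted p = 0.0389) and TACO1, which aids translation of COX1, was lower (-0.32, 0.0142) in HCC1954, and 0 were called in JIMT1. Of 26 genes of mitoribosome assembly and rRNA modification, 1 was higher and 2 were lower in HCC1954, among them the methyltransferase MRM2 (-0.47, 0.00181). In JIMT1 1 was higher, the pseudouridine synthase RPUSD3 (0.50, 0.000139), and 1 lower, MPV17L2 (-0.48, 0.0254). The list medians were within 0.04 of 0 in both lines for factors and for assembly.

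Among the 19 mitochondrial aminoacyl-tRNA synthetases, which charge the tRNAs, MARS2 had log2 fold changes of -1.22 (HCC1954, adjusted p = 5.77e-07) and -0.87 (JIMT1, adjusted p = 2.67e-05). EARS2 (-0.44, 0.000819) and AARS2 (-0.36, 0.0131) were also lower in HCC1954, while TARS2 (0.54, 0.00109) and SARS2 (0.24, 0.0225) were higher in JIMT1. Of 20 genes of mitochondrial DNA transcription and RNA processing, 4 were lower and 1 higher in HCC1954. The helicase TWNK had -0.56 (0.00207), MTERF1 -0.48 (0.00363) and the elongation factor TEFM -0.39 (0.0129), and the exonuclease REXO2 had 0.43 (0.000879). In JIMT1 only TRMT10C of that list, a subunit of mitochondrial RNase P, was called (-0.65, 0.000715).

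Of 8 regulators of mitochondrial biogenesis, both measured coactivators of the PGC-1 family were lower in each line. PPRC1 was at 8.45, 8.51 and 8.49 in HCC1954 with the combination against 9.43, 9.35 and 9.51 with DMSO (-0.94, adjusted p = 1.19e-06), and at 9.41, 9.80 and 9.76 in JIMT1 with the combination against 10.26, 10.29 and 10.14 with DMSO (-0.57, adjusted p = 0.000272). PPARGC1B, detected on 20 of 24 arrays, had -1.12 in HCC1954 (0.000582) and -1.08 in JIMT1 (0.000599). The combination and DMSO arrays of PPRC1 did not overlap in either line. The nuclear receptor ESRRA was lower in HCC1954 (-0.59, 0.00495) and GABPB1, a partner of the ETS factor GABPA, in JIMT1 (-0.35, 0.0375). MYC was higher in JIMT1 (0.30, 0.0164). GABPA, GABPB2 and YY1 were called in neither line. In HCC1954 GABPA averaged 8.32 with the combination and 8.04 with DMSO, and YY1 12.23 and 12.49. In JIMT1 GABPA averaged 8.29 with the combination and 8.17 with DMSO, and YY1 11.61 and 11.62.

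Of 25 genes of mitochondrial protein import, 7 were lower and 1 higher in HCC1954 (median -0.25), and 8 were lower and 1 higher in JIMT1 (median -0.12). The intermembrane-space chaperones TIMM8A (-0.73 and -0.86) and TIMM9 (-0.57 and -0.64) and the chaperone cofactor GRPEL1 (-0.69 and -0.85) were lower in HCC1954 and JIMT1, and the processing peptidase subunit PMPCB was higher (0.22 and 0.30). Of 46 genes of ribosome biogenesis and RNA polymerase I, 24 were lower and 0 higher in HCC1954 (median -0.33) and 23 lower and 0 higher in JIMT1 (median -0.30). Of 67 proteins of the cytosolic ribosome, 2 were higher and 0 lower in HCC1954 (median 0.03), and 1 was higher and 6 lower in JIMT1 (median -0.07). Of 70 oxidative phosphorylation subunits, the complexes the mitoribosome serves, 0 were higher and 2 lower in HCC1954 (median 0.02), and 3 were higher and 1 lower in JIMT1 (median -0.04). Of 20 housekeeping genes, 0 were called in HCC1954 and 3 higher and 2 lower in JIMT1, with medians of 0.02 and 0.01. These medians are descriptions, and the lists were not tested against the members. Counts of the lists under changed scaling are not given.

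**Figure D5:**
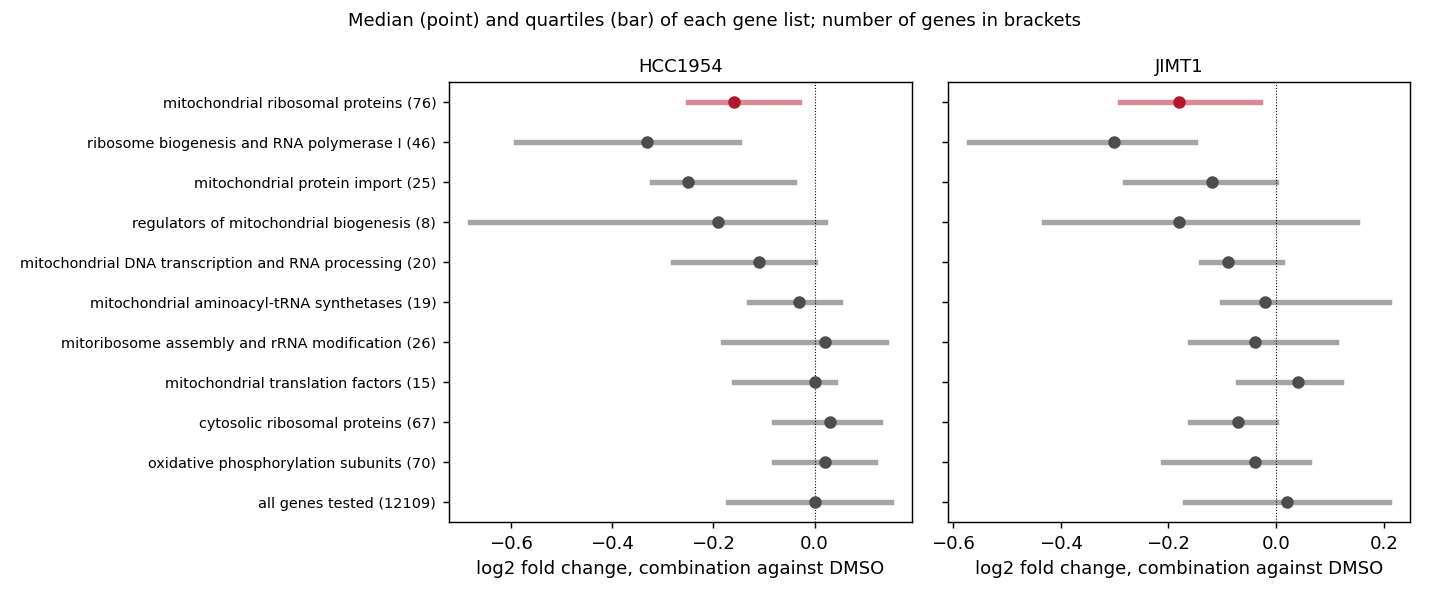
Median (point) and quartiles (bar) of the log2 fold change, combination against DMSO (x axis), for the 76 members (red), related gene lists and all genes tested (grey), in HCC1954 (left) and JIMT1 (right). The members' medians of -0.16 and -0.18 lie between those of ribosome biogenesis (-0.33 and -0.30) and those of cytosolic ribosomal proteins (0.03 and -0.07).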

How the data were processed

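Total RNA of cultured cells was hybridised to Illumina bead arrays, 24 in all. For each probe the authors deposited its mean bead intensity on a linear scale, neither background-subtracted nor normalized, with a detection p-value in steps of 1 in 770 and the count of beads per probe. GenomeStudio is named in the submitters' processing notes, but the sources used here do not give its version. The authors also deposited processed intensities of unstated method, 28% of them below 0, which served as an alternative, and 24 columns of bead standard errors, which were not used.

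In R 4.3.3 with limma 3.58.1, neqc corrected the background from the detection p-values (offset 16), took log2 and quantile-normalized the 24 arrays, which understates the change of dim genes. A probe was kept if its detection p was under 0.05 on each of the 3 arrays of any group. Of 47323 probes, 30113 had 1 gene symbol in the platform annotation, 8 several and 17202 none, and 30074 matched RefSeq by gene ID. The brightest probe stood for each of 12109 genes. One limma fit of the 8 group means (16 residual and 3.92 prior degrees of freedom) gave each contrast, adjusted by Benjamini-Hochberg. The 3 arrays per group limit the precision. The fit was tested on simulated data.

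The members, gene lists and motifs were chosen with earlier results of these data known. Named with values were, per treatment comparison with DMSO and between lines, the up to 10 called members of largest rise and fall, per other comparison the 5 largest, per list the up to 3 called genes of largest change each way, and per array the 6 members of largest mean combination change and the 3 highest and 3 lowest between lines. Exceptions named after their values were seen are members whose probes disagreed, members with an unadjusted p under 0.05 between lines, and neighbouring genes. Alternatives changed the background correction, scaling, filter, choice of probe, samples and blocking. The slide could not be used as a block because the file headers name none.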

Additional observations from a re-analysis of the deposited data

How the results depend on the processing

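Limits: each group had 3 arrays and the members' SE was 0.07 to 0.15, and a member that was not called is not shown to be unaffected. In each alternative, every member called for the combination against DMSO was lower. Calls over all genes are given below only for the combination under changed scaling. The other counts cannot be set against a background. Of the values of single called genes, 733 kept their call under an alternative, 123 kept their direction and lost it, and 0 reversed. This tally pools the treatment comparisons with that of the lines under DMSO. In the latter only MRPS21 lost its call, under 1 of 14 alternatives, so nearly all lost calls were in treatment comparisons.

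With each array scaled to its median over all probes in place of quantile normalization, the combination called 3 members in HCC1954 and 2 in JIMT1, BYL719 0 and 0, the combination against BYL719 0 and 0, and against GSK2334470 3 and 0. That scaling moved the median of all genes to -0.12 under the combination in HCC1954, where the members' median was -0.31. Members called lower were then 3.95% in HCC1954, beside 5.08% of all genes, and 2.63% in JIMT1, beside 2.45%. It called 187 genes higher and 615 lower in HCC1954, beside 843 and 1005 in the quantile fit, and 649 and 297 in JIMT1, beside 1511 and 1071. Scaling over the genes tested, chosen after seeing the data, called 31 members under the combination in JIMT1, 6 under BYL719 in JIMT1, 0 for the combination against BYL719 and 1 against GSK2334470 in HCC1954, and 1 for the line difference. It split all genes 1167 higher and 1480 lower under the combination in JIMT1, and 941 and 785 in HCC1954. The cause was not tested.

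Without the detection filter the combination called 7 members in HCC1954, 3 against GSK2334470 there, 0 against BYL719 in JIMT1, and BYL719 called 1 in JIMT1. A stricter filter gave 4 for BYL719 in JIMT1. Fitting each line alone gave 0 for the combination against BYL719 and 3 against GSK2334470 in HCC1954.

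Leaving out 1 array at a time, the combination called 6 to 11 members in HCC1954 and 10 to 15 in JIMT1, BYL719 0 to 1 and 1 to 2, GSK2334470 0 to 1 and 0 to 0, the combination against BYL719 0 to 1 and 0 to 0, and against GSK2334470 2 to 10 and 3 to 7. Against GSK2334470 in HCC1954 it was 2 without combination replicate 2 or 3 or GSK2334470 replicate 1, 3 without GSK2334470 replicate 3 (1 higher and 2 lower) and 10 without GSK2334470 replicate 2. In JIMT1 it was 3 without combination replicate 2 or GSK2334470 replicate 1, 4 without combination replicate 1 or GSK2334470 replicate 2, and 5 without combination replicate 3. Departure from additivity stayed at 0, the line difference in the combination effect gave 0 to 1 (1 without HCC1954 DMSO replicate 2), that in the BYL719 effect 0 to 0, and the lines under DMSO 48 to 52.

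Deviations of same-numbered arrays from their group means had r of -0.21 to 0.23 in HCC1954 and -0.12 to 0.09 in JIMT1. For differently numbered arrays r was -0.31 to 0.22 and -0.16 to 0.13. No pairing by replicate number was thus seen. Arrays normalized together can hide a shared deviation, so pairing is not excluded. With the replicate block, BYL719 called 1 member in JIMT1, the combination against BYL719 1 in JIMT1, and the combination 9 in HCC1954 and 19 in JIMT1.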

Other observations

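Many mitochondrial ribosomal protein genes lie head to head with a neighbour. In the RefSeq table of GRCh38.p14, 21 members had a gene on the opposite strand with a start site within 1000 bases, and 15 pairs with a gene that is no member were measured on both sides. Under the combination 3 of these members were called in HCC1954 and 3 in JIMT1, beside 15.3% and 21.3% of all genes. Of their neighbours, 1 was higher and 1 lower in HCC1954, and 3 were higher in JIMT1. In 0 pairs were both genes called. With so few calls on each side, this cannot show whether neighbours respond together. MRPL32 had log2 fold changes of -0.26 in HCC1954 and -0.61 in JIMT1, while PSMA2, a proteasome subunit gene whose start is 202 bases away, had 0.02 (adjusted p = 0.933) and -0.05 (adjusted p = 0.745). MRPS18C had -0.35 and -0.22, while the DNA helicase gene HELQ, 175 bases away, had 0.33 (adjusted p = 0.0702) and 0.42 (adjusted p = 0.0167). Between the lines under DMSO, 7 of the 15 members were called and both genes were called in 6 pairs. There MRPL32 and PSMA2 were both lower in HCC1954 than in JIMT1, at -0.70 and -0.79, and MRPL51 and the condensin gene NCAPD2 were both higher, at 0.59 and 0.63. MRPS18B and PPP1R10, a phosphatase regulator gene, went opposite ways, at -0.32 and 0.68 (adjusted p = 1.03e-05 for PPP1R10). These pairs were chosen after their values were seen, and the lines differed in 69.7% of all genes tested.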
